A study of Rattus norvegicus with 16 samples.

Results

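The 38 genes described here code for proteins of the synaptic vesicle and of its fusion with the presynaptic membrane. They were chosen by name as synaptotagmins and Doc2 proteins, SNARE proteins with complexins and Nsf, vesicle membrane proteins, synapsins, Rab3 proteins with rabphilin, and proteins of the active zone and of vesicle priming. All 38 had a probe on the array, 37 passed the filter on dim probes, and these 37 were among 26565 features tested. Syt9, a calcium sensor, was the gene left out: its probe was well above background on 6 of 16 arrays, 0 of them controls, 2 at day 5, 3 at day 15 and 1 at day 30. Of the 37 genes, 36 were above background on all 16 arrays, and Sv2c was so on 9.

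RNA was taken from the hippocampus of 16 male Wistar rats and hybridised to 1-colour Agilent arrays, one array for each rat. All rats had a cannula placed at the right amygdala at 5 weeks of age and received 1.0 µl of saline at pH 2.2 through it, which in the control group held no iron and in the Fe groups held 100 mM FeCl3, an iron salt that starts recurrent limbic seizures and models post-traumatic epilepsy. Hippocampi of the Fe groups were collected at day 5, day 15 and day 30, with 4 rats at each day, and those of the 4 controls at day 15. The controls thus match Fe day 15 in age, and for Fe day 5 and Fe day 30 the effects of iron and of age cannot be told apart. The series text reports seizures in the Fe rats and none in the controls, without a seizure count per rat, and the side of the hippocampus taken is not given in the sources used here.

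Neurotransmitter is stored in synaptic vesicles that dock at the active zone of the presynaptic ending. There the SNARE proteins on vesicle and plasma membrane pair up, Unc13 proteins prime the vesicle, complexins hold the paired complex in check, and calcium binding to synaptotagmin triggers fusion. Nsf then takes the used SNARE complex apart, and synapsins tether the reserve of vesicles. Among these proteins Sv2a is the binding target of the antiseizure drug levetiracetam, and the SNARE proteins are those cut by the clostridial neurotoxins.

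Values are given as scaled signal, which is the processed signal of the probe after each array was divided by its own 75th percentile, times 732.3, the geometric mean of those percentiles over the arrays. Levels can be compared between arrays for the same gene but not between genes. The 75th percentile itself ran from 553 to 924 over the arrays, and 74.2% to 81.6% of transcript spots per array were well above background. Prox1, Wfs1 and Grik4, which mark granule cells, CA1 and CA3 of the hippocampus, were above background on all 16 arrays. The array of Fe day 30 replicate 3 stood apart in markers of other tissue, as did those of Fe day 5 replicates 2 and 3. Lists of markers were summarised on each array as a score: each gene's log2 signal was set against its control mean, and the median of these differences was taken. For 7 measured choroid plexus markers, of 12 listed, the score was 7.38 on Fe day 30 replicate 3, 3.78 on Fe day 5 replicate 3 and 1.78 on Fe day 5 replicate 2, against −0.42 to 0.82 in the controls. The score of 8 measured meninges markers, of 10 listed, was 3.48, 2.74 and 4.55 on these arrays and −0.06 to 0.04 in the controls. Over these lists the summed scaled signal reached 214200 at day 30 and 21630 at day 5 for choroid plexus, with 294.6 to 1059 in the controls, and 88730 and 123700 for meninges, with 5680 to 6561 in the controls. The choroid plexus markers Kl, Slc4a5, Prlr and Cldn2 were above background on 3, 4, 5 and 7 arrays at most. A further array, Fe day 15 replicate 4, had a score of 1.13 for 10 microglia and macrophage markers, all measured, with a sum of 63350 against 28700 to 30840 in the controls. Its meninges score was 1.36. Fe day 30 replicate 3 had a microglia score of 0.92. Values without the first 3 arrays were computed after the data were seen and stand beside the results named there.

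No vesicle gene passed the test at any day. With limma and Benjamini-Hochberg adjustment at 0.05, 0 of 37 were called against control at day 5, day 15 or day 30, where 0%, 0% and 0.00753% of all features were called. The lowest adjusted p among the 37 was 0.473, 0.305 and 0.527 at the 3 days. At an unadjusted p under 0.05 there was 1 gene higher and 3 lower at day 5, against 4.06% and 6.28% of all features, 0 higher and 2 lower at day 15, against 5.17% and 6.33%, and 0 higher and 4 lower at day 30, against 3.12% and 4.66%. These counts moved with single arrays. Without Fe day 5 replicate 2, day 5 had 0 higher and 2 lower (Syt7 and Unc13b), against 2.43% and 2.68% of all features. With Fe day 15 replicate 3 left out, day 15 had 6 higher and 4 lower, against 5.88% and 7.49%. Leaving out Fe day 30 replicate 3 gave 0 higher and 1 lower at day 30 (Doc2b), against 3.76% and 2.72%. Without the 3 arrays that stood apart in markers there were 1 higher and 2 lower at day 5, against 4.28% and 4.68% of all features. Day 15 then had 4 higher and 2 lower, against 6.73% and 8.03%. Day 30 had 0 higher and 3 lower, against 4.37% and 3.02%. The moderated F-test over the 4 groups called 0 genes, with 0% of all features called, and 4 of 37, namely Syt7, Doc2b, Unc13a and Syt5, had an unadjusted p under 0.05, which 8.34% of all features had. These counts are of few genes and are no result about the list.

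Most of the 37 genes lay close to their control level. The log2 difference from control was under 0.25 in size for 28 genes at day 5, 28 at day 15 and 30 at day 30. The 95% interval of the difference lay wholly within 0.5 on the log2 scale, a change of 1.41-fold, for 23, 22 and 24 genes. The median difference was −0.02 at day 5 and −0.01 at day 15, where all features had −0.02 and 0.00. At day 30 it was −0.07 with 29 of 37 genes below 0, while all features had −0.01 and 53.4% below 0. Without Fe day 30 replicate 3 that median was 0.02 and 16 of 37 genes were below 0. With slide as a fixed block, described below for Unc13a, the median was −0.15 with 28 of 37 below 0. Over the 27 alternative settings described at the end, the median of all features at day 30 was at most 0.05 in size. At day 5, 23 of 37 genes were below 0, against 54.2% of all features, and 18 without the 3 arrays. At day 15, 20 of 37 were below 0, against 49.7% of all features.

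**Figure D1:**
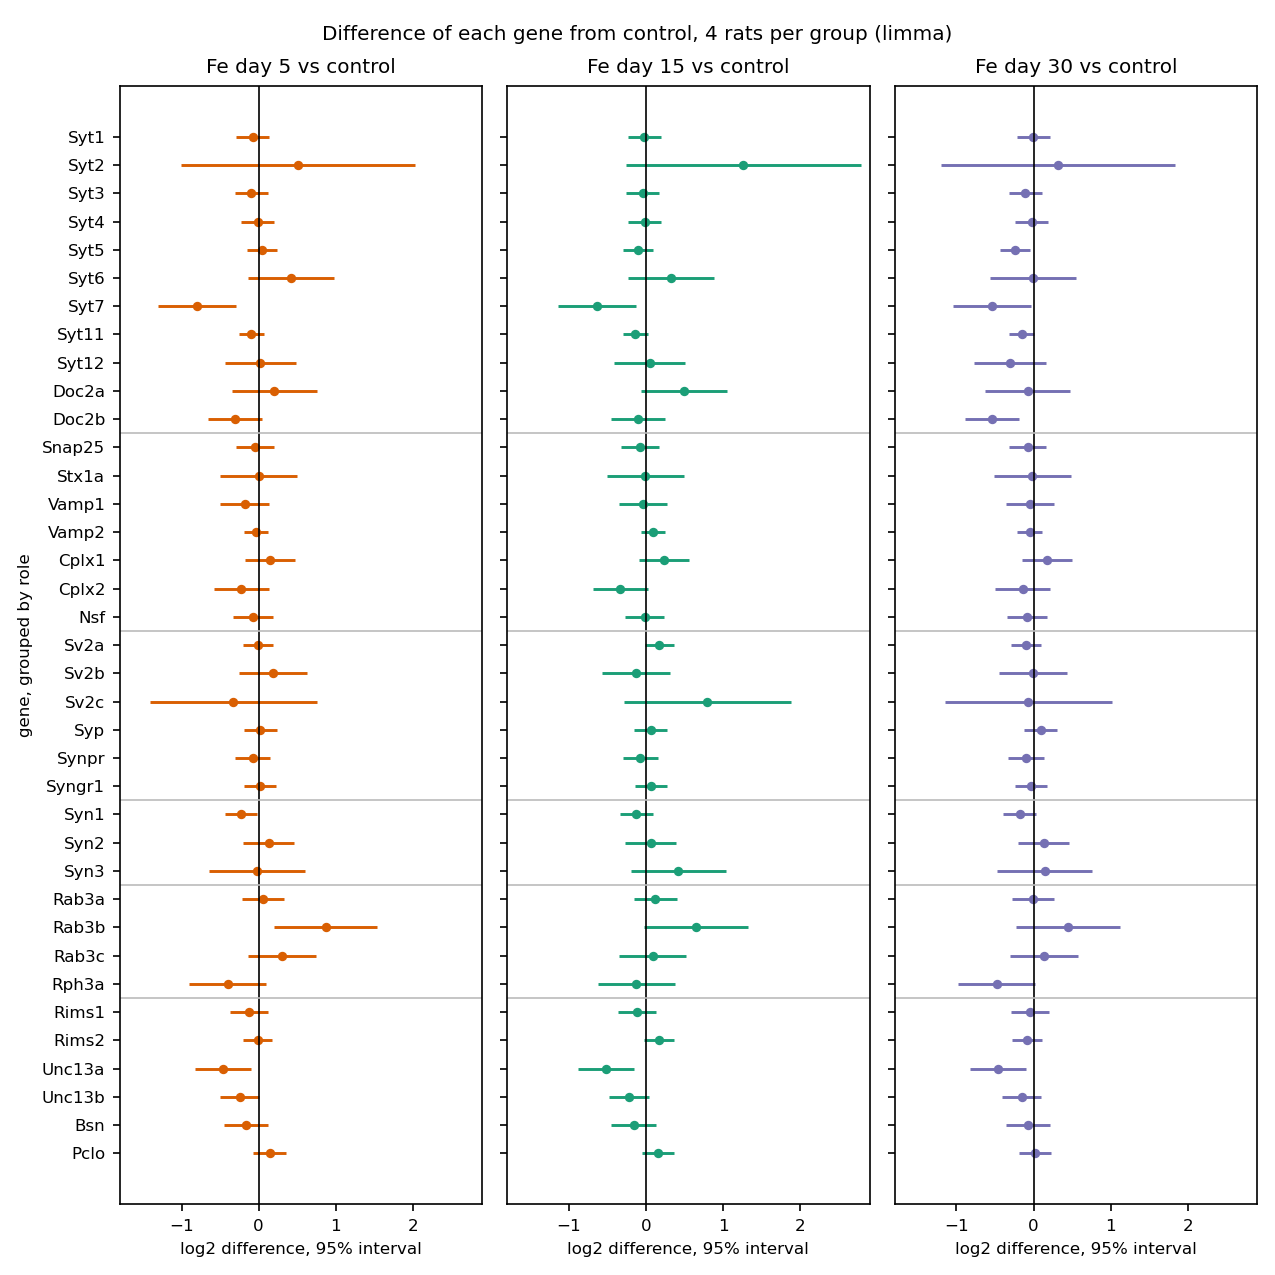
Log2 difference from control of each of the 37 genes at day 5, day 15 and day 30 (points) with its 95% interval from limma (lines), 4 rats per group, with genes grouped by role from calcium sensors at the top to active zone and priming at the bottom. Most points lie within 0.25 of 0, Unc13a and Syt7 lie below 0 in all 3 panels, Rab3b lies above 0, and Syt2 and Sv2c have the widest intervals.

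The active zone and priming genes held the one member that lay below all controls at every day. Unc13a, which codes for Munc13-1, the protein that primes vesicles for release, had scaled signals of 1011, 1153, 990.3 and 987.9 in the controls, 736.6, 593.7, 921.4 and 793.4 at day 5, 718.9, 841.9, 873.4 and 503.8 at day 15, and 791.6, 768.8, 619.6 and 843.8 at day 30. All 12 Fe arrays were below the lowest control, a pattern that 0.587% of all features showed. The log2 difference was −0.46 ± 0.17 (SE) at day 5, −0.52 ± 0.17 at day 15 and −0.46 ± 0.17 at day 30, with unadjusted p of 0.0166, 0.00767 and 0.0163 and adjusted p of 0.473, 0.305 and 0.63. These 3 differences share the same 4 control arrays. The geometric mean differed from control by −27.2%, −30.5% and −27.3%, without passing the adjusted threshold. The Fe days did not differ from one another for this gene beyond their spread, with 95% intervals of −0.43 to 0.30 for day 15 against day 5 and −0.30 to 0.43 for day 30 against day 15.

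Arrays were printed several to a slide, and 6 Fe arrays shared a slide with a control array. They were replicate 4 at day 5, replicates 1 to 3 at day 15, and replicates 3 and 4 at day 30. The day 5 values with slide as a block thus rest directly on replicate 4, and otherwise on links through other Fe arrays. With slide as a fixed block in the limma model the difference of Unc13a from control was −0.31, −0.44 and −0.42 at the 3 days. The unadjusted p values were 0.184, 0.0406 and 0.0693. Without the 3 arrays that stood apart in markers it was −0.43, −0.52 and −0.37. Without Fe day 15 replicate 4, the lowest of its group, the day 15 difference was −0.35 (unadjusted p = 0.0269 by limma).

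The stretch of 250 bases before the start of Unc13a is shown because it was the one gene below all controls at each day, and because its start held both parts of the RE1 element, the motif of the neuronal gene repressor REST. Sequences are from RefSeq on the build GRCr8, on the strand of the gene. Capitals mark the GC box (GGGCGG or its complement CCGCCC) and the right part of RE1 (GGACAG or CTGTCC), for chr16:18415787-18416036 on the minus strand.
Unc13a: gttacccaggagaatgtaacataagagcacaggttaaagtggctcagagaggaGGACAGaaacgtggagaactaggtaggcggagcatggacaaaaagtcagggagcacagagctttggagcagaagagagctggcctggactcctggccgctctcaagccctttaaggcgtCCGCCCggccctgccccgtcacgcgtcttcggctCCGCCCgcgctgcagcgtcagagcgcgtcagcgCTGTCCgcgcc
Unc13a, start site, with both RE1 parts in capitals: CTGTCCgcgcccccGGTGCTGAA
The second stretch runs from base −11 to base 12 around the start (chr16:18415775-18415797, minus strand) and carries the left part of RE1 (TTCAGCACC) on the opposite strand, 8 bases from the right part. Windows of 300 bases, 250 before and 50 after the start, were searched on both strands for 29 members with an entry. The left part occurred in 0.356% of all 33469 windows and in 1 of the 29, that of Unc13a. Both parts occurred in 0.111% of all windows, counted at any spacing and on either strand. This is not the share of windows in which the parts lie 8 bases apart, as in Unc13a. GGACAG alone occurred in 21.7% of all windows and in 8 of the 29 members. The GC box occurred in 79.3% of the members' windows and in 33.1% of all windows, and the TATA box (TATAAA) in 0 of 29 against 14.2%. The matches in these stretches do not overlap. A match says only that these letters are in the window.

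The other active zone genes stayed nearer to control. Bsn, coding for the scaffold Bassoon, had scaled signals of 258, 271.5, 259.7 and 268.7 in the controls, 252.2, 250.8, 257.5 and 192 at day 5, 195.2, 288.8, 265.9 and 208 at day 15, and 300.3, 253.3, 218.3 and 241.9 at day 30. At day 5 all 4 values were below the lowest control, 3 of them by little, and the log2 difference was −0.16 ± 0.14 (SE) with an adjusted p of 0.664. It was −0.06 without Fe day 5 replicate 4, and the later days overlapped the controls. Rims2, a scaffold that recruits vesicles and calcium channels, had 540.3, 587.7, 536.5 and 538.1 in the controls, 576.2, 559.7, 497.4 and 550.1 at day 5, 633.3, 629.8, 593.2 and 622.2 at day 15, and 545.4, 519.9, 425.8 and 601.5 at day 30. Its day 15 values were above all controls and above all day 5 values, at a log2 difference from control of 0.17 ± 0.09 (adjusted p = 0.481). Day 30 against day 15 gave −0.25 ± 0.09 for Rims2, with an unadjusted p of 0.0139 and an adjusted p of 0.691. Unc13b, which codes for Munc13-2, was at −0.24, −0.22 and −0.15 at the 3 days, and Rims1 and Pclo, the latter coding for Piccolo, were between −0.12 and 0.15.

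Groups that did not overlap were scarce over all roles. At day 5, 0 genes were above and 3 below all controls (Unc13a, Syn1 and Bsn), where 2.75% and 5.09% of all features were. At day 15, 2 were above (Sv2a and Rims2) and 2 below (Unc13a and Syt7), against 4.11% and 5.73%. At day 30, 0 were above and 1 below (Unc13a), against 2.62% and 3.63%. These counts are near the background at each day.

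Among the 11 measured calcium sensors the largest downward differences were those of Syt7 and Doc2b. Syt7, a high-affinity synaptotagmin known for asynchronous release and short-term facilitation, had scaled signals of 139.9, 146.2, 136.6 and 119 in the controls, 69.1, 49.1, 121.6 and 88.3 at day 5, 89.6, 94.1, 105.8 and 64.9 at day 15, and 97.9, 84.2, 74.1 and 121.4 at day 30. The values at day 15 were all below the controls, and at day 5 and day 30 1 array of 4 lay above the lowest control. The log2 difference of Syt7 was −0.80 ± 0.24 (SE) at day 5, −0.63 ± 0.24 at day 15 and −0.54 ± 0.24 at day 30, with unadjusted p of 0.00448, 0.0182 and 0.0379 and adjusted p of 0.473, 0.359 and 0.635. Within slides Syt7 was below the control on 6 of 6 Fe arrays, by −0.17 to −0.98, and with slide as a block its difference was −0.62, −0.51 and −0.46, with unadjusted p of 0.0711, 0.0795 and 0.137. Without Fe day 15 replicate 4 the day 15 difference of Syt7 was −0.49 (unadjusted p = 0.0658 by limma).

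Doc2b is a soluble calcium sensor linked to spontaneous and asynchronous release. Its scaled signals were 94.6, 86.8, 66.3 and 81.6 in the controls, 70.8, 66.9, 68.1 and 58.7 at day 5, 63.8, 86.3, 88.4 and 68.1 at day 15, and 52, 46.4, 51.5 and 79.3 at day 30. At day 30, 3 arrays lay below every array of the other groups, and the fourth lay within the controls. The log2 difference was −0.31 ± 0.16 at day 5, −0.11 ± 0.16 at day 15 and −0.54 ± 0.16 at day 30, the last with an unadjusted p of 0.00514 and an adjusted p of 0.527. Its homologue Doc2a was at 0.21, 0.49 and −0.08.

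Syt1 and Syt5 code for synaptotagmins of forebrain. Syt1, the main sensor of fast synchronous release, had 3681, 4590, 3436 and 3739 in the controls, 3910, 3594, 3577 and 3498 at day 5, 3317, 3883, 4156 and 3807 at day 15, and 3373, 3986, 3870 and 4148 at day 30. The 4 groups of Syt1 overlapped, and the 95% intervals of its log2 difference from control were −0.29 to 0.14 at day 5, −0.23 to 0.19 at day 15 and −0.21 to 0.21 at day 30. Syt5 had 12640, 14690, 14590 and 14060 in the controls, 15220, 15760, 14600 and 12420 at day 5, 13200, 13550, 12450 and 13030 at day 15, and 12340, 11800, 10240 and 13070 at day 30. Syt5 was at 0.05 ± 0.09, −0.10 ± 0.09 and −0.24 ± 0.09 at the 3 days, with an unadjusted p of 0.0184 and an adjusted p of 0.633 at day 30. Without Fe day 30 replicate 3 the day 30 value was −0.17, with an unadjusted p of 0.0676, and with slide as a block it was −0.34, with an unadjusted p of 0.00467 and an adjusted p of 0.739. Against day 5, Syt5 at day 30 was at −0.29 ± 0.09, with an adjusted p of 1.

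Syt2, a fast sensor known from brainstem, thalamic and other synapses, was the most uneven member. It is singled out here after its values were seen. Its scaled signal was 69.6 to 101.2 in the controls, 59.4 to 312.9 at day 5, 67.4 to 1023 at day 15 and 55.6 to 199.4 at day 30. The value of 1023 came from Fe day 15 replicate 1. On that array the summed scaled signal of 6 measured thalamus markers, of 7 listed, was 19270, against 2574 to 5471 in the controls, and the score of the list was 0.65. On Fe day 5 replicate 2, where Syt2 was at 59.4, the score was 0.85 and the sum 6171. On Fe day 5 replicate 4, where Syt2 was at 312.9, the score was 0.38 and the sum 5769. The part of neighbouring tissue in the Syt2 values was not tested. In whole tissue, fewer cells of a type and less RNA per cell cannot be told apart. The remaining calcium sensors Syt3, Syt4, Syt6, Syt11 and Syt12 were at −0.31 to 0.42 over the 3 days, with 0 called.

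**Figure D2:**
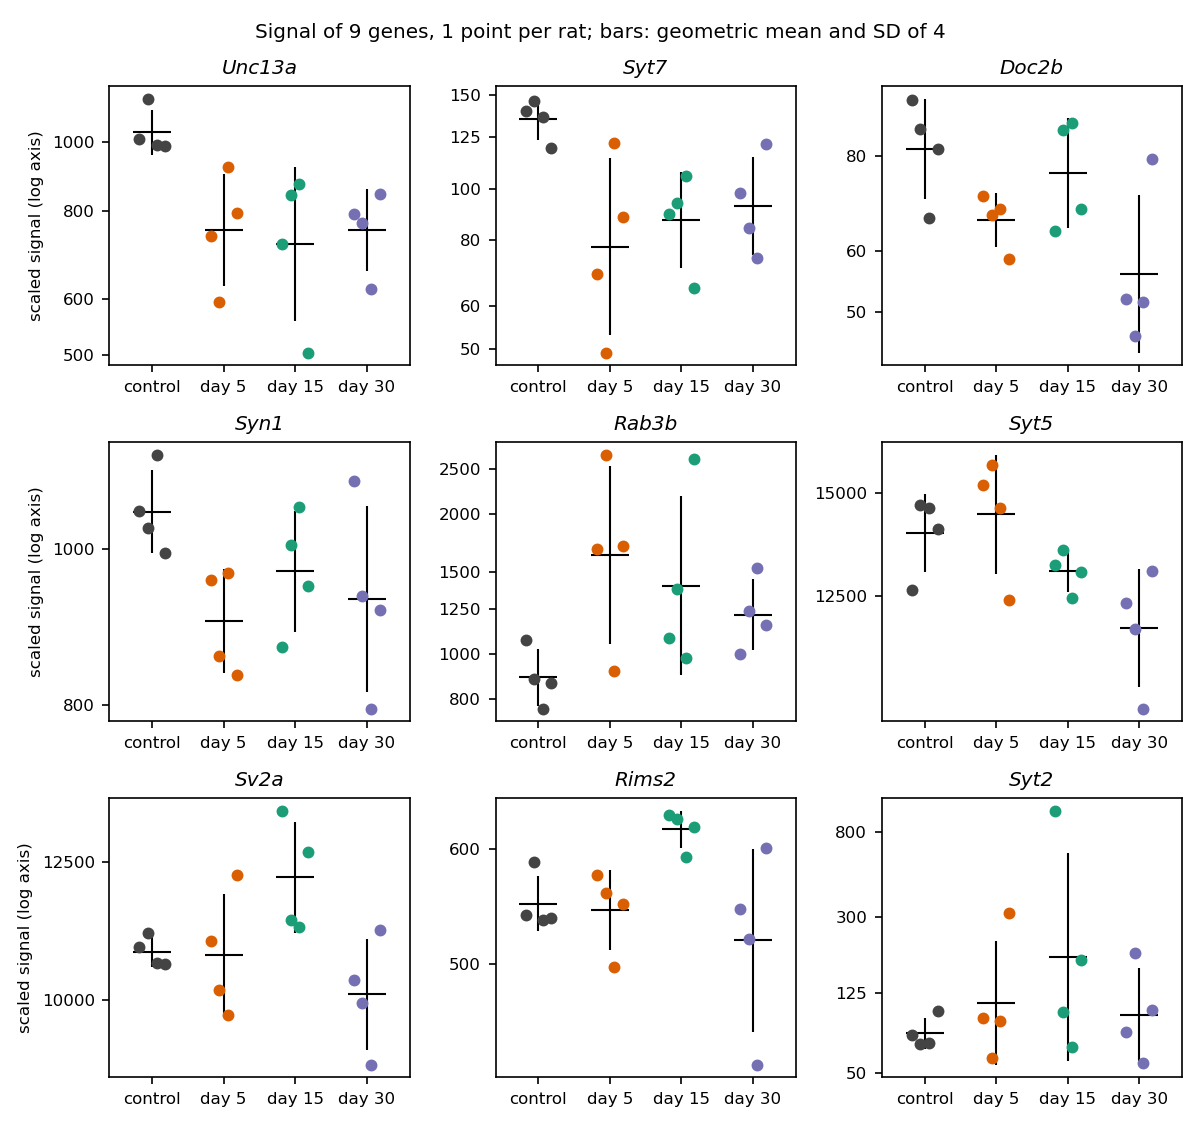
Scaled signal (log axis) of 9 vesicle genes on each of the 16 arrays, 1 point per rat, with the geometric mean and SD of 4 rats as bars. All Fe points of Unc13a lie below its controls, Rab3b reaches 2677 at day 5 and 2624 at day 15, Sv2a and Rims2 lie above control at day 15, and 1 day 15 array of Syt2 is at 1023.

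Unc13a and Syt7 ranked the rats alike. Within each of the 4 groups, controls included, the 4 arrays stood in the same order for both genes, from lowest to highest. Of the other 36 members Syt7 was the only one with this agreement in all 4 groups, and of the 26564 other features 14 had it (0.0527%). This was noticed after the values were seen, and it is a description of these arrays. The lowest array of Unc13a was replicate 2 at day 5, replicate 4 at day 15 and replicate 3 at day 30. Syt7, Syt11, Syt12 and Rph3a, coding for the Rab3 effector rabphilin, were also lowest on these arrays within each Fe group, as 9.53% of other features were, and Rab3b was highest on each, as 5.41% were. The score of 7 measured CA1 and subiculum markers, of 8 listed, was −1.06, −0.72 and −1.01 on these arrays and −0.15 to 0.08 in the controls. It was also −0.72 on Fe day 5 replicate 3, where Unc13a was highest of its group. The summed scaled signal of these markers was 11820 to 15030 in the controls, 4839 to 13760 at day 5, 6431 to 11990 at day 15 and 4405 to 14470 at day 30. The part of these markers, and of the microglia and meninges markers high on Fe day 15 replicate 4, in the Unc13a, Syt7 and Rab3b values was not tested.

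Against control, Rab3b was the one of the 37 genes with a higher value at an unadjusted p under 0.05, at day 5. The Rab3 proteins are small GTPases on the vesicle that act with Rim and rabphilin in docking, and Rab3b is known from inhibitory and endocrine terminals. Its scaled signals were 1074, 886.3, 763.9 and 867.8 in the controls, 1680, 2677, 918.7 and 1704 at day 5, 1084, 1381, 982.8 and 2624 at day 15, and 1002, 1238, 1527 and 1155 at day 30. At each Fe day at least 1 array lay within the control range, and 1 array at day 5 and 1 at day 15 stood well above the others. The log2 difference was 0.87 ± 0.31 (SE) at day 5, 0.65 ± 0.31 at day 15 and 0.45 ± 0.31 at day 30, with unadjusted p of 0.015, 0.0563 and 0.176 and adjusted p of 0.473, 0.442 and 0.706. A second probe of the gene gave 0.89, 0.63 and 0.52. Rab3b was above the control of its slide on 6 of 6 Fe arrays, by 0.18 to 0.85, and with slide as a block the values were 0.62, 0.57 and 0.45, with unadjusted p of 0.15, 0.127 and 0.257. Single arrays carried part of these differences. Without Fe day 5 replicate 2 the day 5 value was 0.63 (unadjusted p = 0.0593 by limma), and without Fe day 15 replicate 4 the day 15 value was 0.35 (unadjusted p = 0.222). The score of 9 measured interneuron markers, of 12 listed, was 0.45 on Fe day 5 replicate 2 and 0.22 on Fe day 15 replicate 4, the arrays highest for Rab3b, and −0.08 to 0.11 in the controls. It was 0.28 and 0.31 on Fe day 15 replicates 1 and 2, where Rab3b was lower, and the part of these cells was not tested.

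Rab3a, the main brain Rab3, stayed at 0.06, 0.12 and −0.00 on the 3 days, and Rab3c at 0.30, 0.09 and 0.14. Rph3a was at −0.40, −0.13 and −0.48, with a lowest unadjusted p of 0.0593 at day 30. The bases before the start of Rab3b (chr5:128858841-128859090, plus strand) are shown for this one higher gene, with the right part of RE1 (GGACAG) in capitals. Its GC box lay in the first 50 bases of the gene, outside this stretch.
Rab3b: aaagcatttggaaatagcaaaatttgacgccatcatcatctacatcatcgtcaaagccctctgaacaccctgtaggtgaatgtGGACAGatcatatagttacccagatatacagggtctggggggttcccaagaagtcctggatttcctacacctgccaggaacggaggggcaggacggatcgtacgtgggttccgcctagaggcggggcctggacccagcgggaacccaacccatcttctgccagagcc

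The 7 genes of the SNARE machinery held none with an unadjusted p under 0.05 against control at any day. Snap25, a plasma membrane SNARE protein, had 35970, 35260, 40210 and 33350 in the controls, 37950, 33720, 33800 and 34510 at day 5, 31740, 37060, 34880 and 33610 at day 15, and 39900, 36970, 25990 and 35790 at day 30. The value of 25990 was that of Fe day 30 replicate 3, the lowest of the 16, and the groups overlapped. The log2 difference of Snap25 was −0.05, −0.08 and −0.08, with 95% intervals of −0.29 to 0.20, −0.32 to 0.17 and −0.32 to 0.17. Vamp2, the vesicle SNARE protein synaptobrevin 2, had 13220, 13520, 12940 and 12290 in the controls, 13390, 12670, 11940 and 12700 at day 5, 12850, 14590, 13990 and 13990 at day 15, and 13350, 12560, 10970 and 13480 at day 30. Its intervals were the narrowest of the named genes, at −0.20 to 0.12, −0.07 to 0.25 and −0.21 to 0.11. Stx1a, the syntaxin that pairs with Snap25 and Vamp2, had 413.3, 312.7, 356.2 and 400.6 in the controls, 399.8, 379.2, 382 and 318.2 at day 5, 229.3, 403.4, 386.2 and 502.4 at day 15, and 544.3, 407.9, 265.7 and 300.6 at day 30. Its means stayed within 0.02 of control while its arrays spread widely, and the intervals were −0.50 to 0.50, −0.51 to 0.49 and −0.52 to 0.49. With slide as a block Stx1a at day 5 was at −0.45, with an unadjusted p of 0.0178 and an adjusted p of 0.904. Vamp1, Nsf and Cplx1 were between −0.18 and 0.24, and Cplx2, the complexin of excitatory neurons, was at −0.22, −0.33 and −0.14.

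Sv2a, the glycoprotein named above as a drug target, stood highest at day 15 among the 4 groups. Its scaled signals were 10900, 11150, 10610 and 10590 in the controls, 11000, 10160, 9751 and 12240 at day 5, 13590, 11380, 11250 and 12710 at day 15, and 10330, 9953, 8997 and 11190 at day 30. The day 15 values were above every control and every day 30 value. The log2 difference from control was −0.01 ± 0.09 at day 5, 0.17 ± 0.09 at day 15 (12.8% higher, adjusted p = 0.471) and −0.10 ± 0.09 at day 30. Between day 30 and day 15 it was −0.27 ± 0.09, with an unadjusted p of 0.0085 and an adjusted p of 0.668. Sv2b, its paralogue, was at 0.19, −0.13 and −0.01. Sv2c was near background, with 2 of 4 control arrays, 2 at day 5, 4 at day 15 and 1 at day 30 above it, so its differences of −0.33, 0.80 and −0.07 have no firm scale. It passed the filter on dim probes only through day 15. Syp, Synpr and Syngr1, coding for synaptophysin, synaptoporin and synaptogyrin, were between −0.10 and 0.09 at all 3 days.

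Syn1, coding for the synapsin that tethers the reserve pool of vesicles, was below all controls at day 5. It had 1057, 1032, 1146 and 994.5 in the controls, 957.2, 857.7, 966.9 and 834.7 at day 5, 868.5, 1007, 1063 and 948.5 at day 15, and 1103, 935.5, 795.3 and 916.1 at day 30. The log2 difference was −0.23 ± 0.10 at day 5 (−14.6%, unadjusted p = 0.0368, adjusted p = 0.476), −0.12 ± 0.10 at day 15 and −0.18 ± 0.10 at day 30. Syn2 was at 0.13, 0.06 and 0.13, and Syn3 at −0.02, 0.42 and 0.15. The bases before the start of Syn1 (chrX:3725495-3725744, plus strand) are shown beside those of Unc13a, as both genes were below all controls at day 5, with the cAMP response element (TGACGTCA) in capitals.
Syn1: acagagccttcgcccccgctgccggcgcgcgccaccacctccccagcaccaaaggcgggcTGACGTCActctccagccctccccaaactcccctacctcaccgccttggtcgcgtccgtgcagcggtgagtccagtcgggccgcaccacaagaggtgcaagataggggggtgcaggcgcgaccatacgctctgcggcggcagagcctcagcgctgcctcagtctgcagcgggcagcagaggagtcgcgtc
The element lay from base −190 to base −183, counted from the start. It occurred in 2 of 29 members' windows, those of Syn1 and Vamp1, and in 1.83% of all windows. No whole RE1 part was found in the Syn1 window of 300 bases. The window opens with acag, the closing letters of the right part GGACAG, and the bases before it were not searched. Whether an RE1 element lies across that edge cannot be told from this window.

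Between the Fe days 0 of 37 genes were called by limma in any of the 3 comparisons, with 0%, 0% and 0% of all features called. At an unadjusted p under 0.05, 1 gene was higher at day 15 than at day 5, against 4.05% of all features. It was Sv2c, whose higher day 15 level was what let it pass the filter, and 0 of the other 36 were higher at that p. At day 30 against day 5, 1 was lower (Syt5), against 1.52%. At day 30 against day 15, 4 were lower (Sv2a, Rims2, Doc2b and Doc2a), against 3.67%. Groups were apart for 1 gene at day 15 above day 5 (Rims2, against 2.07% of all features) and for 2 at day 30 below day 15 (Sv2a and Sv2c), against 1.89%, or for Sv2a alone when Sv2c is set aside.

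**Figure D3:**
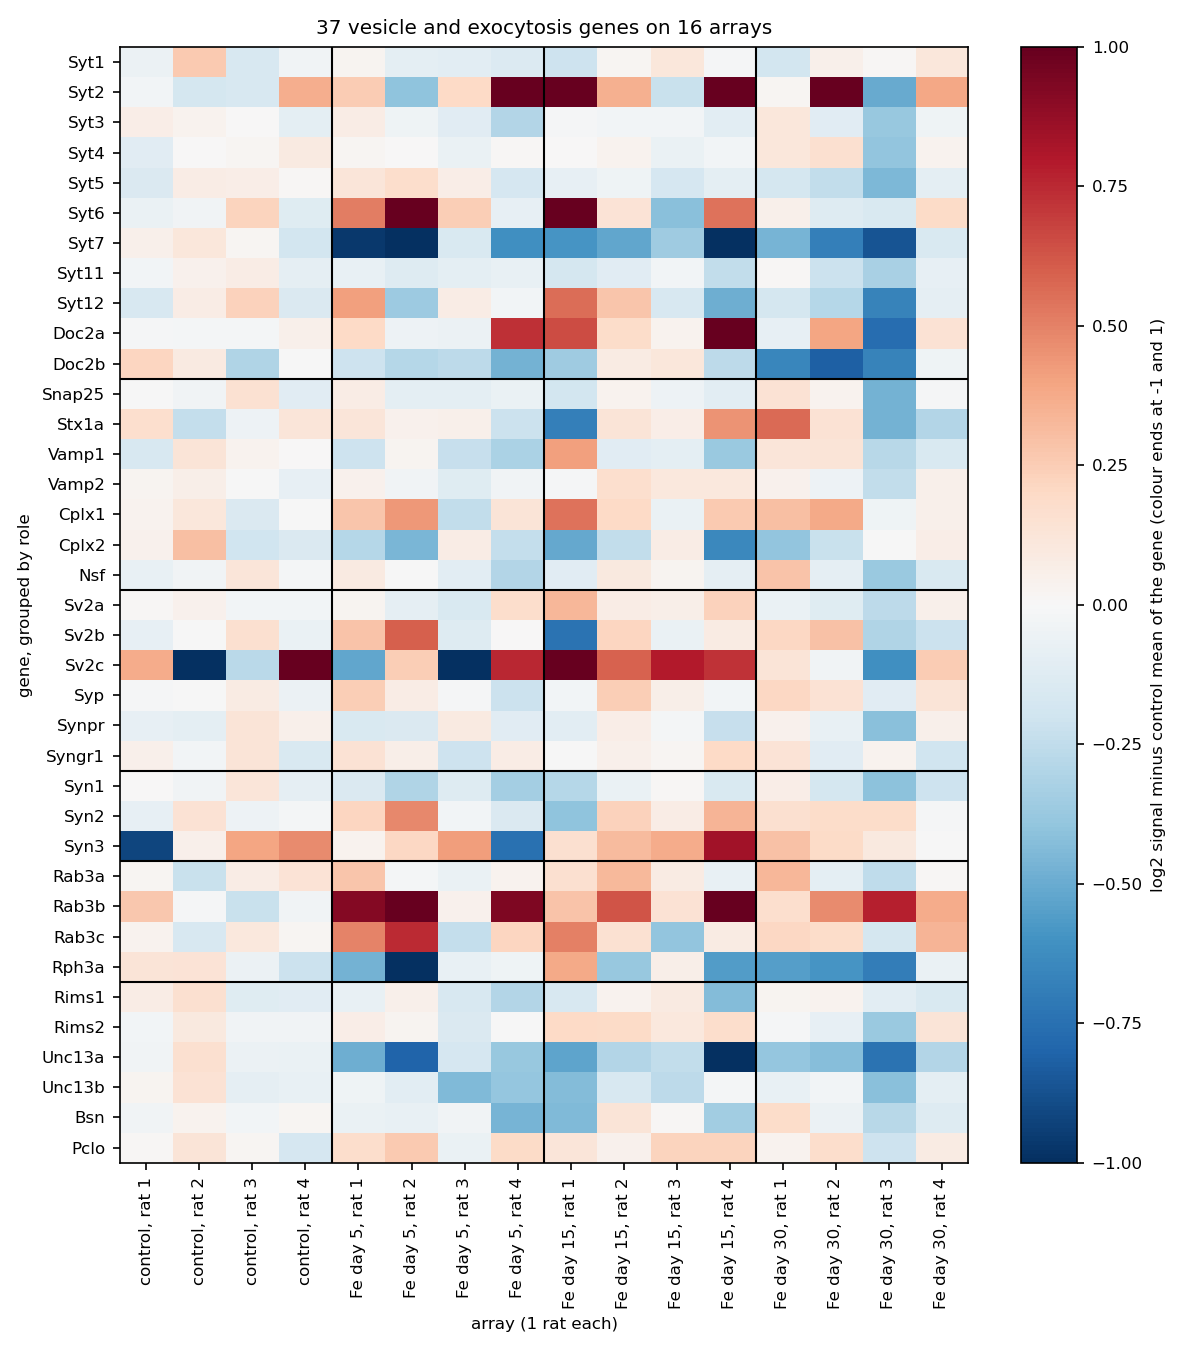
Log2 difference of the 37 genes on each of the 16 arrays from the gene's control mean (colour, from −1 in blue to 1 in red; values beyond are shown at the end colours), with rows grouped by role and columns by group. The row of Unc13a is blue on all Fe arrays, and the column of Fe day 30, rat 3 is blue for most genes.

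The column of Fe day 30 replicate 3 was the lowest of the 16 for 16 of the 37 genes, while 16.6% of all features had their lowest value there. The next most frequent lowest array held 4 of the 37. The median of the 37 genes on that array was −0.32, and it lay between −0.10 and 0.08 on the other 15. The score of 10 measured neuron markers, of 16 listed, was −0.29 on it and −0.02 to 0.19 on the others. The choroid plexus, meninges and CA1 scores of the same array are given above, and their part in the low values was not tested. The spread within groups was also uneven: the median SD of a vesicle gene was 0.11 in the controls, 0.16 at day 5, 0.24 at day 15 and 0.21 at day 30, where all features had 0.13, 0.18, 0.18 and 0.19.

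**Figure D4:**
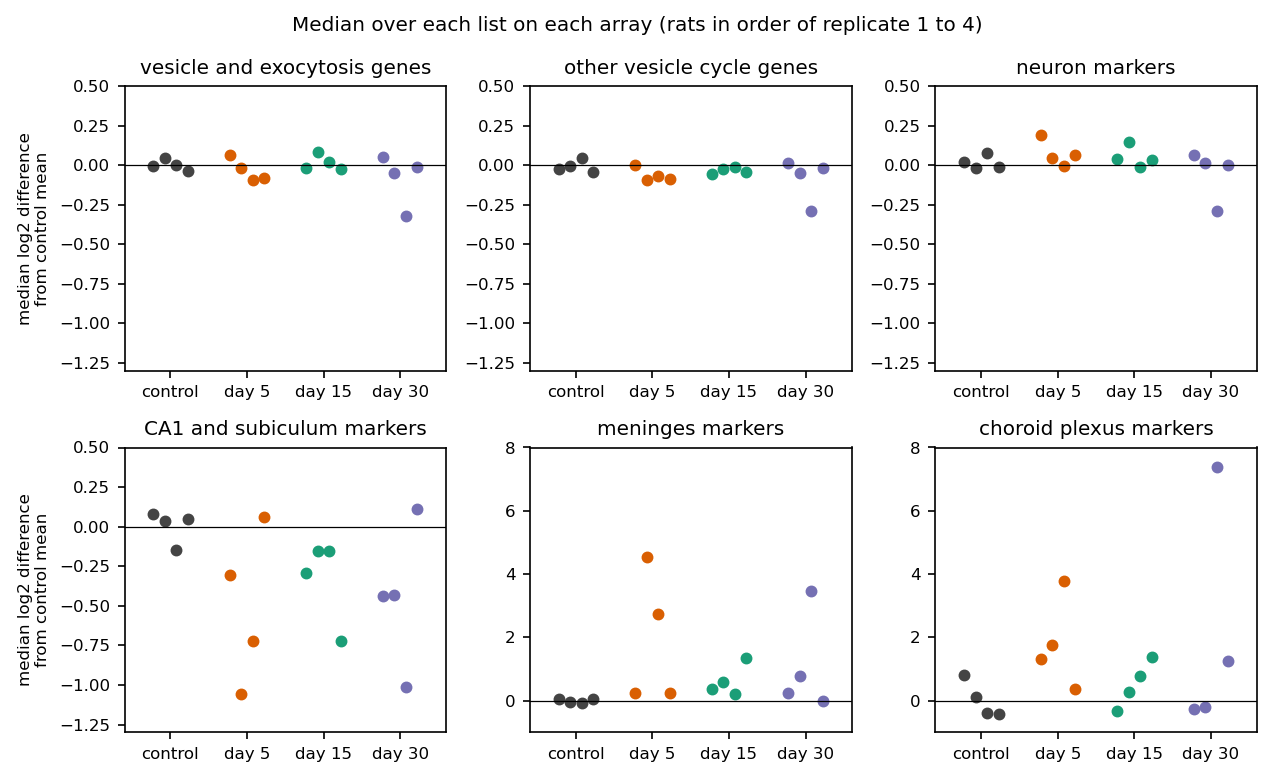
Score of 6 gene lists on each array, the median over the list of log2 differences from the control mean, with 1 point per rat in order of replicate number. The vesicle genes, the other vesicle cycle genes and the neuron markers are lowest on Fe day 30 replicate 3, at −0.32, −0.29 and −0.29, and the choroid plexus markers reach 7.38 on the same array (the lower middle and right panels have a wider axis).

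A list of 52 further genes of exocytosis and vesicle recycling, of which 42 were measured, was fitted in the same way. With limma 0 of 42 were called at any day, and at an unadjusted p under 0.05 there were 0 higher and 5 lower at day 5, against the 4.06% and 6.28% of all features, 1 higher and 4 lower at day 15, against 5.17% and 6.33%, and 0 higher and 2 lower at day 30, against 3.12% and 4.66%. Their median difference was −0.06, −0.02 and −0.09, where all features had −0.02, 0.00 and −0.01. Rab3d, a Rab3 of secretory granules, had the lowest unadjusted p, with 822.7, 1128, 848 and 885.3 in the controls, 909, 659.4, 976.3 and 756.4 at day 5, 651, 604.2, 659.1 and 624 at day 15, and 920.1, 803.6, 695.6 and 909 at day 30. Its day 15 values were all below the controls and close together, at −0.53 ± 0.13 (unadjusted p = 0.00141, adjusted p = 0.199). Rab27b, a Rab of regulated secretion, had 804, 1022, 737.8 and 904.1 in the controls, 653.7, 594.5, 543.9 and 766.9 at day 5, 854.3, 805.3, 863.8 and 618.1 at day 15, and 523.5, 507.9, 565 and 847.1 at day 30. In 3 of 4 rats at day 5 and at day 30 it was below all controls, with differences of −0.44 ± 0.17 (adjusted p = 0.473) and −0.53 ± 0.17 (adjusted p = 0.542). Stx3 at day 5 was at −0.31 ± 0.10 (adjusted p = 0.473). Rims3 at day 15 was at 0.68 ± 0.24 (adjusted p = 0.337). Its signal was low, at 15.22 to 21.97 in the controls. At day 15 it was 47.52 on replicate 1 and 21.94 to 23.6 on the other arrays. Ppfia2, coding for the active zone protein liprin-alpha-2, at day 30 was at −0.26 ± 0.09 (adjusted p = 0.608).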

How the data were processed

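Per the file headers, the deposited scanner files hold a processed signal per spot, an intensity that Agilent Feature Extraction 9.5.3.1 had background-subtracted and detrended. Median spot and background intensities, also deposited, served an alternative. The deposited value table equalled the processed signal. Here log2 processed signals minus each array's 75th percentile were used. Control spots and spots marked as outliers were left out, and spots of a probe were averaged. Probes were kept where every array of 1 group or more had them well above background, and the brightest probe per gene was used. Symbols came from RefSeq accessions (GRCr8 table). A one-way model of 16 arrays with 12 residual degrees of freedom was fitted with limma 3.58.1 in R 4.3.3 and adjusted by Benjamini-Hochberg over 26565 features, two-sided. The script was tested on simulated data. The number of arrays limits the precision. Of the members, per-array values are given for the 8 of lowest F-test p, those whose groups did not overlap against control (6 at most per day), and Sv2a, Snap25, Syt1, Stx1a and Vamp2. Of the further vesicle genes they are given for Rab3d and Rab27b, of lowest p at day 15 and at day 30. Stx3, of lowest p at day 5, is given by its difference only. The members and lists were chosen with earlier results of these data known. The promoter search used the RefSeq entries at hand; Syt5, Syt7, Syt12, Doc2a, Doc2b, Snap25, Syngr1, Syn3 and Rims2 are named only.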

Additional observations from a re-analysis of the deposited data

Results flagged for a closer look

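In 56 sets of 4 arrays, covering the named genes and the median of the 37 genes, 3 held an array far from the other 3 by Dixon's criterion, which chance alone meets in about 1 of 20 sets. Unc13a was at 1153 in control replicate 2, with the other controls at 987.9 to 1011. Without that array its differences were −0.41, −0.47 and −0.41 at day 5, day 15 and day 30. Rims2 was at 587.7 in the same control array, with the others at 536.5 to 540.3, and its day 15 difference without that array was 0.20. Bsn was at 192 in Fe day 5 replicate 4, with the others at 250.8 to 257.5, and its day 5 difference without that array was −0.06.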

How the results depend on the processing

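The 26 alternatives planned and 1 added after the data were seen (without the 3 arrays that stood apart in markers) each called 0 of 37 genes in every comparison they were run for, with a lowest adjusted p of 0.124 (Doc2b at day 30 with array weights). They covered normexp, quantile and median scaling, the filter on dim probes, the mean of probes, fits of only the groups compared, array weights, slide and replicate as blocks, and each array left out. Over all features, array weights called 184 at day 15, against 0 in the main setting, and 10 were called without Fe day 15 replicate 4. The differences of Unc13a and Syt7 from control kept their sign under all 27 alternatives at each day, as did those of Rab3b and Doc2b, and 125 of 2106 values of named genes changed sign, among them Stx1a and Sv2a near 0. With the replicate block the adjusted p of Unc13a was 0.386 at day 15. Of 24 same-number pairs 5 correlated over 0.1. Among the arrays of other groups, 8 of 16 arrays correlated best with an array of their own number. Whether the numbers pair the rats cannot be told from these counts, and the main model has no pairing. The median of the 37 genes ranged from −0.05 to −0.01 at day 5, −0.03 to 0.01 at day 15 and −0.11 to 0.02 at day 30 with each array left out. With slide as a block it was −0.08, −0.03 and −0.15, with 28, 20 and 28 of the 37 genes below 0. The median of all features was at most 0.08, 0.02 and 0.05 in size at the 3 days over the 27 alternatives. At an unadjusted p under 0.05 with slide as a block, 0 genes were higher and 3 lower at day 5. The 3 were Stx1a, Syn1 and Unc13b, where 1.28% of all features were higher and 2.9% lower. Day 15 had 0 higher and 2 lower (Unc13a and Unc13b), against 4.03% and 4.89%. Day 30 had 0 higher and 1 lower (Syt5), against 2.21% and 3.49%.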
